A study of Zea mays with 10 samples.

Results

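The sites described here are places in the outer regions of the 10 maize chromosomes where FEA4 was found in both ChIP-seq replicates and where no second such site lay nearby. There were 1791 of them among 4115 sites found in both replicates. A shared site is a replicate 1 peak on chromosomes 1 to 10 that overlapped a replicate 2 peak by at least 1 bp. It counted as isolated where no other shared summit lay within 10 kb of its own summit, and as outer where the summit lay below 25% or above 75% of chromosome length. Chromosome length was taken as the largest peak end in either list. The remaining shared sites were 876 isolated sites in the chromosome middles and 1448 clustered sites, which had a neighbour within 10 kb. The sites were thus chosen by the peak calls, summits and positions of both replicates, so their values are descriptions of what was chosen, with no test. No difference between outer and middle sites was tested.

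FEA4 (FASCIATED EAR4) is a maize bZIP transcription factor that limits the size of shoot meristems, the stem cell domes from which ears and tassels form. It is the counterpart of Arabidopsis PERIANTHIA, which acts in floral meristems. Proteins of this family bind DNA as dimers through a basic region. Maize genes are densest towards the chromosome ends, and the regions around the centromeres are rich in retrotransposons.

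The ChIP group consisted of 2 anti-GFP (ab290) libraries from tassel primordia of 2 to 5 mm, set against 2 input libraries of the same tissue, all given the genotype normal B73 in the labels. The plants were field grown and carried YFP-FEA4 driven by the FEA4 promoter, from 1 integration event (A399S1-7) that rescued the mutant. Whether the plants also held an intact FEA4 gene of their own, and how many plants went into each library, is not stated in the labels. All 4 libraries shared 1 sequencing run, and the labels and files state no read totals, so depth is unknown. The 6 pools of ear RNA in the same series were not used here, because that table lists genes without positions. The peak lists name no genes and no annotation of the AGPv2 build was used here, so each site is given by its AGPv2 position only.

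The replicates differed in how many peaks they held. Replicate 1 had 5020 peaks with a median summit height of 6, and replicate 2 had 9644 with a median summit height of 9. Of the peaks on chromosomes 1 to 10, 82.0% of replicate 1 peaks and 42.0% of replicate 2 peaks met a peak of the other list. The shorter replicate 1 list thus overlapped the longer one for most of its peaks. The number of isolated outer sites was 2157 when replicate 1 was used alone (without replicate 2) and 3271 when replicate 2 was used alone (without replicate 1), isolation then being judged within that list.

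Isolated sites were crowded towards the chromosome ends, though their share in the outer regions was below that of the other sets of peaks described below. Of the 2667 isolated sites, 67.2% lay in the outer regions (exact Clopper-Pearson 95% interval 65.3% to 68.9%, covering counting error only), although by construction the outer regions and the middle cover equal lengths. That gave 1.74 isolated sites per Mb in the outer regions, against 0.852 per Mb in the chromosome middles, a ratio of 2.04. The outer regions were the denser on all 10 chromosomes. The ratio ranged from 1.53 on chromosome 1 to 4.15 on chromosome 2.

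By the rule, a closer neighbour makes a site clustered, so the isolated sites were also set beside all shared sites. All shared sites numbered 2.80 per Mb in the outer regions, against 1.21 per Mb in the chromosome middles, a ratio of 2.32. Of the shared sites in the outer regions 62.3% were isolated, against 70.6% in the chromosome middles. The ratio was thus smaller for the isolated sites than for the shared sites they were taken from. The outer regions held 69.8% of all shared sites and 74.8% of the clustered sites. They held 70.3% of all replicate 1 peaks and 69.7% of all replicate 2 peaks.

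Peaks that the choice of sites did not use lay in the same regions. Of the 5596 replicate 2 peaks that met no replicate 1 peak, 69.6% were in the outer regions (95% interval 68.4% to 70.8%), and on each of the 10 chromosomes more of them lay there than in the chromosome middles. Their outer to middle ratio was 2.29 over all chromosomes, lowest on chromosome 4 at 1.25 and highest on chromosome 2 at 4.45. Among the 903 replicate 1 peaks that met no replicate 2 peak, 72.6% were in the outer regions.

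**Figure D1:**
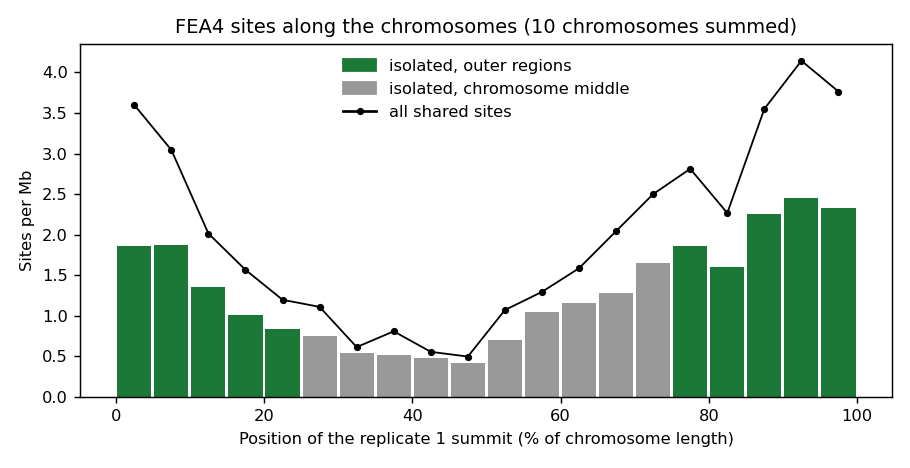
Density of FEA4 sites (sites per Mb, summed over the 10 chromosomes) in steps of 5% of chromosome length; bars are isolated sites in the outer regions (green) and the chromosome middles (grey), and the line is all shared sites. Density was lowest at 45% to 50% of chromosome length (0.418 isolated sites per Mb) and highest at 90% to 95% (2.45 per Mb), with 0.837 per Mb outside and 0.749 per Mb inside the 25% limit, and 1.86 outside and 1.65 inside the 75% limit.

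Density changed gradually along the chromosomes, and unequally at the start and the end, as the plot of density along the chromosomes shows. From the start of the chromosomes inward, in steps of 5% of their length, there were 191, 193, 139, 104 and 86 isolated outer sites. From 75% of the length to the end there were 191, 164, 232, 252 and 239. The innermost step of the start side thus held 86 sites, and each of the last 3 steps held 232 to 252. Just past the upper limit, the chromosome middles still had 1.65 isolated sites per Mb at 70% to 75% of the length, more than the 0.837 per Mb of the outer sites at 20% to 25%.

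The start regions, below 25% of the length, held 713 sites (1.39 per Mb) and the end regions, above 75%, 1078 (2.10 per Mb). The end region held more on 9 chromosomes, though on chromosome 1 only by 132 to 128, and on chromosome 2 both held 135. Chromosomes 6 and 7 were the most lopsided. On chromosome 6 the start region had 23 sites (0.545 per Mb) and the end region 116 (2.75 per Mb), the densest of all outer regions. On chromosome 7 the counts were 37 (0.838 per Mb) and 112 (2.54 per Mb). In both of these start regions the isolated sites were sparser than in the middle of the same chromosome, which had 0.675 per Mb on chromosome 6 and 1.03 per Mb on chromosome 7. The unshared replicate 2 peaks showed the same imbalance there, with 59 in the start and 243 in the end region of chromosome 6, and 87 and 295 on chromosome 7. On chromosomes 1 and 2 those peaks were instead more numerous in the start region, with 306 against 259 and 319 against 246. In each whole peak list, too, the end region held more on 8 chromosomes, and the start region held more on chromosomes 1 and 2.

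**Figure D2:**
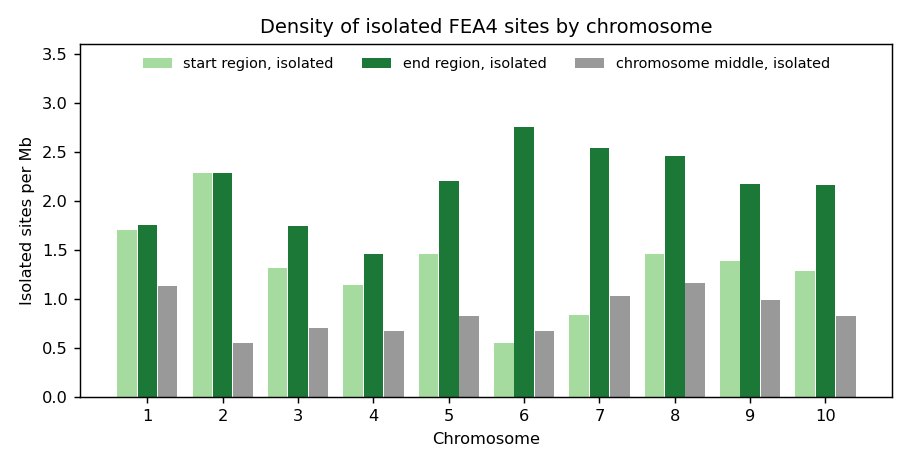
Isolated FEA4 sites per Mb on each chromosome in the start region (light green), the end region (dark green) and the chromosome middles (grey). The start regions of chromosomes 6 and 7, at 0.545 and 0.838 per Mb, are the only outer regions below the middle of their own chromosome.

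By chromosome, chromosome 2 had the most isolated outer sites and the highest density, with 270 sites and 2.28 per Mb, against only 65 isolated sites (0.549 per Mb) in its middle. Chromosome 1, the longest, had 260 sites at 1.73 per Mb. Chromosome 4 was the sparsest, with 157 sites at 1.30 per Mb. Chromosome 10, the shortest, had the fewest, 129, but at 1.72 per Mb it was close to the median of the 10 chromosomes, 1.73 per Mb. The remaining chromosomes had 177 sites on chromosome 3, 199 on chromosome 5, 139 on chromosome 6, 149 on chromosome 7, 172 on chromosome 8 and 139 on chromosome 9, at 1.53 to 1.96 per Mb. The longest stretch between neighbouring isolated outer sites was on chromosome 8, where 6.57 Mb separated the summits at 28168303 and 34733914, with 2 clustered sites between them. The shortest of the 20 longest gaps, 1 for each outer region, was 2.14 Mb in the end region of chromosome 5.

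The peak score, which MACS sets higher the less likely a pile of ChIP reads is given the local background, was modest at most of the sites. In replicate 1 it ran from 50.14 through a median of 88.74 to 1170.37, and in replicate 2 from 50.03 through a median of 162.17 to 2260.95. Both lists start just above a score of 50, so many sites sat close to the limit of detection. A replicate 1 score under 60 was seen at 267 of the 1791 sites (14.9%), but only 31 (1.73%) were under 60 in both lists. The same shares were 15.9% and 1.83% among isolated middle sites, and 14.0% and 0.898% among clustered sites. At the upper end 675 outer sites (37.7%) reached 100 in both lists, 171 (9.55%) reached 200 and 17 (0.949%) reached 500. These limits were reached by 36.4%, 9.47% and 0.457% of isolated middle sites, and by 43.0%, 12.8% and 1.24% of clustered sites.

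Over all chromosomes together, the outer sites and the isolated middle sites lay close to each other in median score. The median replicate 1 score was 88.74 in the outer regions, against 87.2 in the chromosome middles, and the median replicate 2 score was 162.17 in both. The upper quartiles in replicate 1 were 134.14 in the outer regions and 128.5 in the chromosome middles. The highest scores lay further apart, at 1170.37 in the outer regions against 720.09 in the chromosome middles in replicate 1, and at 2260.95 against 1772.56 in replicate 2, over unequal numbers of sites. Within chromosomes, the outer median was above the middle median on 6 of 10 in replicate 1 and on 5 of 10 in replicate 2. Single chromosomes differed more, in both directions. In replicate 2 the outer and middle medians were 162.17 and 216.91 on chromosome 3, and 143.38 and 180.75 on chromosome 10. They were 184.99 and 159.19 on chromosome 4, and 162.17 and 135.71 on chromosome 2.

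**Figure D3:**
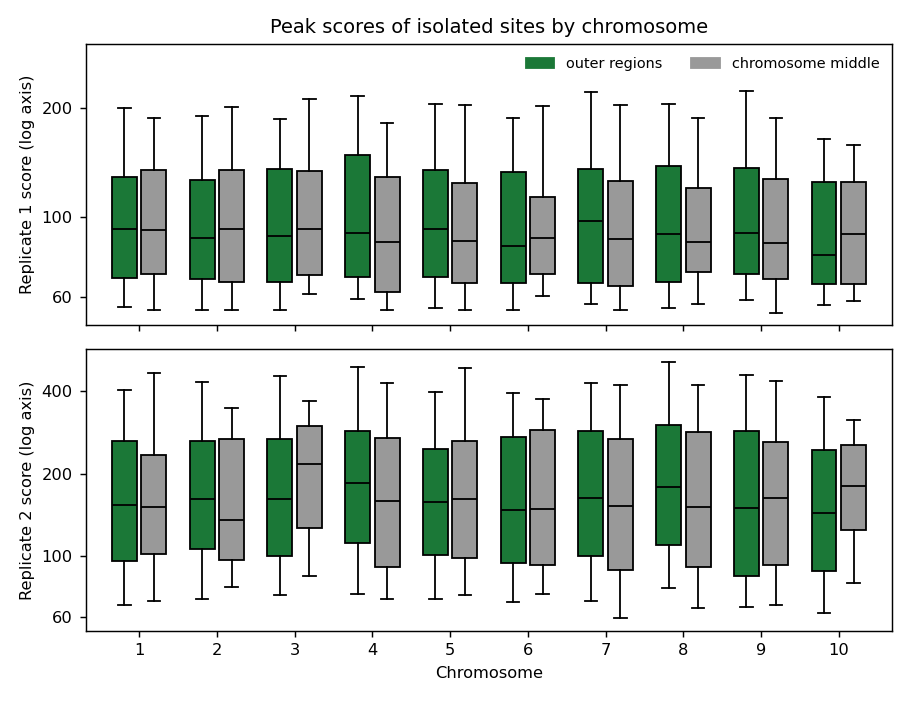
Peak scores of isolated sites in the outer regions (green) and the chromosome middles (grey) on each chromosome, in replicate 1 (top) and replicate 2 (bottom), on log axes; boxes span the quartiles, the line is the median and whiskers reach the 10th and 90th percentiles. Boxes of the outer and middle sites overlap on every chromosome, with outer medians of 78.11 to 97.45 in replicate 1 and 143.38 to 184.99 in replicate 2. Middle medians were 84.78 to 92.46 in replicate 1 and 135.71 to 216.91 in replicate 2.

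Among the chromosomes, the median replicate 1 score of the outer sites was lowest on chromosome 10, at 78.11, and highest on chromosome 7, at 97.45. In replicate 2 chromosome 10 was again the lowest, at 143.38, and chromosome 4 the highest, at 184.99. The highest outer scores on chromosome 8 were 398.8 in replicate 1 and 907.42 in replicate 2, the lowest maxima of the 10 chromosomes. Chromosome 8 still held 9 of the 100 highest replicate 1 scores, and 5 of the 42 outer sites with a replicate 1 height of at least 20. Chromosome 2 held the highest score in each list.

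Summit height, the signal at the top of a peak in the authors' summit lists, was low in absolute terms. It ran from 3 through a median of 6 to 47 in replicate 1 and from 3 through a median of 13 to 83 in replicate 2. At 285 sites (15.9%) the replicate 1 height was only 3 or 4, against 17.0% of isolated middle and 14.4% of clustered sites. The 42 sites (2.35%) with a height of at least 20 in replicate 1 all reached 20 in replicate 2 as well, where they ran from 29 to 83, and they were found on all 10 chromosomes. The 17 isolated middle sites (1.94%) and 39 clustered sites (2.69%) of that replicate 1 height also all reached 20 in replicate 2. Mean heights were 7.66 ± 4.14 in the outer regions and 7.53 ± 3.92 in the chromosome middles in replicate 1, and 15.7 ± 9.70 and 15.5 ± 9.12 in replicate 2 (SD over sites, n = 1791 outer and 876 middle).

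Most peaks were narrower than 1000 bp. Replicate 1 widths ran from 250 bp through a median of 616 bp to 2677 bp, against a median of 619 bp in the chromosome middles. Replicate 2 peaks had a median width of 788 bp in the outer regions and in the chromosome middles alike, and the outer ones ran from 261 to 3299 bp. At 1349 sites (75.3%) the replicate 2 peak was the wider. A width of at least 1000 bp was reached by 168 sites (9.38%) in replicate 1, of which 128 reached it in both lists. In replicate 1 it was reached by 7.42% of isolated middle sites and 12.1% of clustered sites.

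Replicate 2 gave higher values than replicate 1 at most of these sites. The rule left out replicate 2 peaks that met no replicate 1 peak, so the values below describe the chosen sites only. Over the whole lists the median scores lay closer, at 82.73 in replicate 1 and 96.46 in replicate 2. The score was higher in replicate 2 at 1479 sites (82.6%) and lower at 312 (17.4%), with a median ratio of replicate 2 over replicate 1 of 1.71. Height was higher in replicate 2 at 1688 sites (94.2%), equal at 56 and lower at 47, with a median ratio of 2. The middle sites gave a median score ratio of 1.74 and a median height ratio of 2. At isolated sites the difference between the lists was thus of about the same size in both regions.

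The order of the sites was only partly the same in the replicates. Across the 1791 sites, Spearman's rho between the replicates was 0.56 for scores, 0.65 for heights and 0.47 for widths. Across the 876 isolated middle sites it was 0.55, 0.66 and 0.47. The sites share both libraries and a lower score limit, so no p-value is given. By chromosome, rho for scores of the outer sites ranged from 0.45 on chromosome 10 to 0.64 on chromosome 7. Of the 100 highest-scoring sites in each list, 56 were in the top 100 of both. The sites in the top quartile of replicate 1 scores (134.22 and above) fell in the top quartile of replicate 2 scores in 59.6% of cases and in the bottom quartile in 4.04%. In the bottom quartile of replicate 1 scores, 42.8% were also in the bottom quartile in replicate 2.

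**Figure D4:**
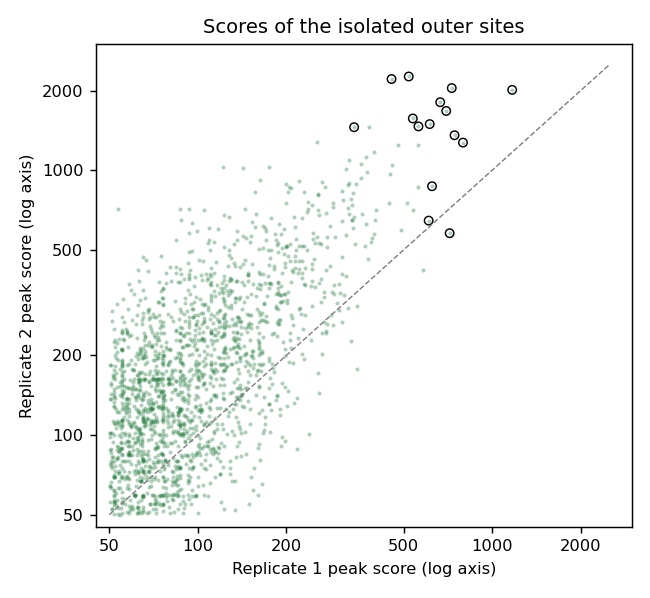
Replicate 1 against replicate 2 peak score of the 1791 isolated outer sites, on log axes; the dashed line marks equal scores and the 15 circled sites are the 10 highest of either list. Most sites (82.6%) lie above the line, and 2 of the circled sites lie close to it or below it.

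Summits of the replicates lay close together at most sites. They were a median of 47 bp apart, and 930 sites (51.9%) had them within 50 bp, 1379 (77.0%) within 100 bp and 1615 (90.2%) within 200 bp. The isolated middle sites were much alike, with a median of 48 bp and shares of 52.5%, 77.5% and 90.8%. At 9 outer sites both summits fell on the same base, and at 41 they were over 500 bp apart. Neither replicate's summit leaned to one side: the replicate 2 summit had the higher coordinate at 882 sites and the lower at 900. From the bottom to the top quartile of replicate 1 scores, the median distance between summits was 60, 51, 48 and 35.5 bp. Stronger sites were also wider, with median replicate 1 widths of 539, 579, 653 and 785.5 bp over the same quartiles.

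The strongest site in replicate 1 was chr2:18791867-18792835 (AGPv2), 7.93% of the way along chromosome 2. It scored 1170.37 with a height of 47 in replicate 1 and 2012.75 with a height of 82 in replicate 2, where it ranked 4 of 1791, and its nearest shared summit was 278 kb away. Its summits were 58 bp apart. It was 969 bp wide in replicate 1, wider than the median site, and had the greatest replicate 1 height of the set.

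Another 4 sites were among the 10 highest in both lists. On the far side of the same chromosome, chr2:216615421-216616914 scored 729.2 in replicate 1 and 2044.56 in replicate 2. The site chr9:4958096-4958919, near the start of chromosome 9, scored 666.26 and 1807.82 in the same order. Next, chr7:145711227-145712228 ranked 6 in each list with 698.13 and 1674.97, and chr3:53007105-53007956 had 613.69 and 1494.41. These sites lay on 4 chromosomes in start and end regions alike, and none had a height under 21 in replicate 1 or under 52 in replicate 2.

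The highest replicate 2 scores belonged to sites near the start of chromosome 2 that ranked lower in replicate 1. There, chr2:9098911-9100841 scored 2260.95 in replicate 2 and 520.71 in replicate 1, and chr2:3293310-3294356 scored 2211.67 and 455.13. The other sites among the 10 highest of replicate 2 alone were chr4:23981633-23982855 (1569.21 in replicate 2 and 537.6 in replicate 1), chr7:1449820-1450584 (1464.66 and 561.9) and chr7:172717558-172718821 (1454.47 and 339.54). The site at the start of chromosome 7 had the greatest height of any outer site in replicate 2, 83, and the second greatest in replicate 1 of those named here, 34.

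The converse was seen on chromosome 9. There, chr9:132005487-132006962 scored 717.29 in replicate 1, rank 5, and 578.51 in replicate 2, where it ranked 104, and chr9:124568133-124569904 scored 608.68 and 645.49. These are wide peaks of 1476 and 1772 bp in replicate 1, with heights of only 18 and 14 there, and their summits in the replicates were 967 and 823 bp apart. Other sites among the 10 highest of replicate 1 were chr10:123570972-123572759 (796.16 in replicate 1 and 1272.27 in replicate 2), chr1:260448150-260449493 (745.39 and 1356.35) and chr5:172921812-172923325 (624.95 and 870.55). The best outer sites of the 2 chromosomes without a place in these lists were chr6:159468095-159470086 (559.05 and 1248.92) and chr8:173419531-173420424 (398.8 and 648.84). The chromosome 6 site reached its score with heights of only 12 and 21, over widths of 1992 and 2473 bp.

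The weakest and most extreme sites show the range of the set. The lowest replicate 1 score, 50.14, was at chr1:46738628-46739184, which had 64.35 in replicate 2. The lowest replicate 2 score, 50.03, was at chr6:145987367-145987962, which had 54.48 in replicate 1. Both sites were weak in each replicate. The widest site was chr1:25812799-25815475, 2677 bp in replicate 1 and 2472 bp in replicate 2, with scores of 376.25 and 981.65. The narrowest, chr4:192078028-192078277, was 250 bp wide in replicate 1 but 890 bp in replicate 2. By share of chromosome length, the sites nearest the ends were both on chromosome 2: chr2:161611-162010, with a summit 162 kb from the start and scores of 122.78 and 677.08, and chr2:236965040-236965452, with scores of 50.73 and 142.78, whose replicate 2 peak itself set the length used for that chromosome.

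Isolated outer sites were a median of 107435 bp from the nearest shared summit, against 174282 bp in the chromosome middles. The rule used this distance, with its limit of 10 kb. Shared sites numbered 2.80 per Mb in the outer regions against 1.21 in the chromosome middles, so the spacing is not a result apart from density. The outer median was the shorter on 9 of 10 chromosomes, with chromosome 7 the exception (97853 bp in the outer regions and 90384 bp in the chromosome middles). Of the outer sites, 184 (10.3%) had a shared neighbour within 20 kb and 878 (49.0%) within 100 kb, and 56 (3.13%) had none within 1 Mb, against 94 (10.7%) of the middle sites. The most isolated outer site, chr7:30319517-30319901, was 3461 kb from the next shared summit and scored 97.6 in replicate 1 and 223.37 in replicate 2, ranks 780 and 608 of 1791. Scores varied little with spacing or with distance to the nearer chromosome end. Spearman's rho was −0.03 in replicate 1 and −0.01 in replicate 2 between score and distance to the nearest shared summit. It was 0.02 and −0.01 between score and distance to the chromosome end (n = 1791 sites). That distance does not separate the start from the end regions. Their median scores were 92.16 and 87.2 in replicate 1, and 172.46 and 154.6 in replicate 2. Of the 100 highest replicate 1 scores, 47 were in start and 53 in end regions, which held 713 and 1078 sites. No difference between start and end was tested.

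**Figure D5:**
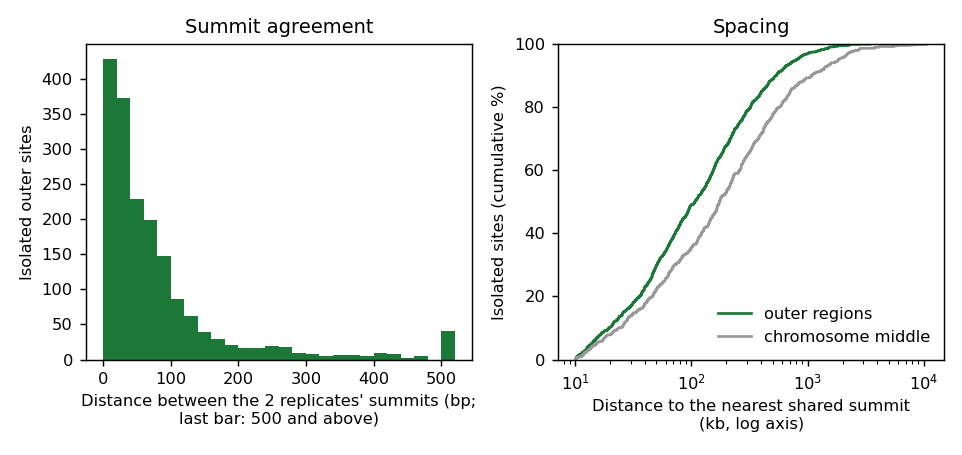
Left, distance between the summits of the 2 replicates (bp) at the 1791 isolated outer sites, with a median of 47 bp. Right, cumulative share of isolated sites (%) by distance to the nearest shared summit (kb, log axis) in the outer regions (green) and the chromosome middles (grey), where the outer curve runs at shorter distances, with medians of 107435 bp and 174282 bp.

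Isolation was judged against shared sites, and the data show that it was often not isolation from every peak. An unshared peak of either list lay within 10 kb of 607 outer sites (33.9%, 95% interval 31.7% to 36.1%), against 212 middle sites (24.2%, 21.4% to 27.2%). Most of these neighbours came from replicate 2, which had an unshared peak within 10 kb of 559 outer sites (31.2%) and 190 middle sites (21.7%). The outer share was above the middle share on 8 of 10 chromosomes, and ranged from 19.4% on chromosome 9 to 38.9% on chromosome 2. Among clustered sites the share was 41.4%. Unshared replicate 2 peaks were themselves more numerous in the outer regions, with 3895 against 1701 in the chromosome middles. The intervals cover counting error only, and the difference was not tested. The 559 outer sites with an unshared replicate 2 peak within 10 kb had median scores of 92.88 in replicate 1 and 168.22 in replicate 2. The 1232 without one had 87.54 and 159.7. When isolation was required from every peak of either list, 1184 outer sites remained.

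The sites next to each limit of the rule were not all weak. The closest pair of outer sites still counted as isolated, chr2:8950188-8950778 and chr2:8960464-8960863, had summits 10081 bp apart and replicate 1 scores of 90.62 and 55. Just outside among sites in the outer regions, chr7:157460660-157461070 and chr7:157470500-157471253 had summits 9965 bp apart and replicate 1 scores of 80.8 and 56.52. At the lower position limit, the last outer sites were chr4:59851088-59851630 at 24.8% of the length (57.11 in replicate 1) and chr2:58286017-58286763 at 24.6% (167.42), and the first middle sites were chr2:59376698-59377353 and chr5:54613853-54614440, both at 25.1% (53.48 and 57.26). At the upper limit the first outer sites were chr3:174071209-174071686 at 75.02% (68.1) and chr2:177860265-177860806 at 75.06% (95.37), and the last middle sites were chr9:117319134-117320591 at 74.98% (491.01) and chr7:132390528-132391482 at 74.97% (223.96).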

How the data were processed

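ChIP-seq peak lists of 2 FEA4 replicates were used. Per the submitters' processing notes the tools were CASAVA, Bowtie 0.12.7 and MACS 1.4.0rc2, without their roles. Per the labels, the ChIP and input libraries of a number belong to the peak list of that number. The authors deposited a peak score for each peak and, in a second list, the signal height at each summit, as whole numbers, and neither was rescaled here. The 2 lists are not known to be scaled to each other, so values are given per replicate. Chromosome names carry the build AGPv2. Of the peaks, 2 in replicate 1 and 4 in replicate 2 lay outside chromosomes 1 to 10 and were left out.

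Peaks and summits were joined by name, and positions were written from 1. A site met by 2 replicate 2 peaks took its replicate 2 values from the one with the higher score. Python 3.11.15, numpy 2.4.6, pandas 2.3.3 and scipy 1.17.1 were used, and the overlap and isolation rules were tested on simulated data. Intervals are exact Clopper-Pearson 95% intervals for counting error only. No test between groups was made. The sites named are the highest replicate 1 score of each chromosome, the 10 highest scores of each list, the extremes in score, width, isolation and position, and the sites next to each limit. The rule and the sites were chosen with earlier results of these data known. Nothing in the labels says whether the 2 replicates came from separate plants.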

Additional observations from a re-analysis of the deposited data

How the results depend on the processing

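The number of isolated outer sites, 1791, was 886 when only peaks with a score of at least 100 in both lists were used and 1184 when isolation was required from every peak of either list. Using 1 list alone gave 2157 to 3271. Their share of all isolated sites, 67.2%, was 69.6% with the score limit and 64.1% with isolation from every peak, both outside its counting interval. It was 56.8% with outer limits at 20% and 80%, which cover less of the chromosomes, and 64.5% to 67.4% with 1 list alone. With the score limit, which removes the weaker peaks, the median replicate 1 score was 150.4, the median replicate 2 score 285, the median replicate 1 width 750 bp and the median replicate 1 summit height 10, against 6 over all members. The median replicate 2 score was 91.41 without replicate 1. An overlap of at least 50%, isolation at 5 or 20 kb and replicate 2 as the base list moved none of the 7 results past its limit. The limit was 1.5 times for the count, 0.1 for the rank correlation, the counting interval for the share and the SD between the lists for medians. That SD was 51.9 for score, 122 bp for width and 4.95 for height. It is wide beside a median replicate 1 score of 88.74 and height of 6, so a median that stayed within it says little. Width and height in replicate 1 have no value without replicate 1, and the rank correlation none without either. No paired analysis was possible because no result comes from a test. Low heights limit the precision: a difference of 1 in height is large beside the replicate 1 median of 6.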

Other observations

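Identical scores recurred at different isolated outer sites. In replicate 1 the 1791 sites took 1344 distinct scores and 595 sites (33.2%) shared their score with at least 1 other, the most frequent being 55, at 36 sites. In replicate 2 there were 1456 distinct scores, 432 sites (24.1%) shared theirs, and the most frequent was 59.49, at 20 sites. Ranks of single sites in the lower part of the lists are therefore often tied.

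The overlap behind a shared call was mostly wide. The replicate 2 peak covered the whole replicate 1 peak at 850 outer sites (47.5%), at 30 it covered under 50% of it, and the smallest overlap was 5 bp. The replicate 1 summit lay outside the replicate 2 peak at 16 sites, and 13 sites met 2 replicate 2 peaks. Whole cover was seen at 46.7% of isolated middle sites and 50.1% of clustered sites.

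The 17 outer sites with a score of at least 500 in both lists lay on 9 chromosomes, 4 of them on chromosome 2 and 3 each on chromosomes 9 and 10, with 8 in start and 9 in end regions. Their median widths were 1223 bp in replicate 1 and 1559 bp in replicate 2. They were 0.949% of the outer sites, and the same scores were reached by 4 isolated middle sites (0.457%) and 18 clustered sites (1.24%).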
